A study of Mus musculus with 20 samples.

Results

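The comparison followed here asks how microRNA (miRNA) levels differed between days 27 to 30 and days 19 to 23 of a mouse stem cell culture that had already left the naive state. Embryonic stem cells were turned into epiblast stem cells, which are pluripotent but primed, like the epiblast after implantation, in a male line (E14) and a female line (PGK). At day 0 both lines grew in 2i medium. All the libraries compared here come from cells then kept in N2B27 medium with Activin A and Fgf2 on fibronectin, split with Accutase at day 4 and regularly after that. The later window held 4 libraries, E14 at day 27 (experiment diff2) and day 30 (diff3) and PGK at day 29 in both experiments. The earlier window held 4 libraries of the same cultures, E14 at day 21 (diff2) and day 19 (diff3) and PGK at day 23 (diff2) and day 21 (diff3). They were selected by line, experiment and day, and make up 8 of the 20 libraries of the series. Each sex is 1 line, so line and sex cannot be told apart. The labels name experiments and no separate animals, so p-values reflect only how these experiments vary. The 8 libraries held 7.11 to 9.99 M (mega) miRNA counts each, with 889 to 915 miRNAs detected.

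A miRNA is cut from a hairpin and loaded into an Argonaute protein, where bases 2 to 8, the seed, pair with target messenger RNAs and lower their output. Seeds define families. The miR-290 cluster is typical of mouse embryonic stem cells and the miR-302 cluster of primed cells, while the let-7 family accumulates as cells leave pluripotency and is held back in stem cells by Lin28. The miR-200 family maintains epithelial character, and miRNAs lying in the Hox clusters follow the position of a cell along the body axis.

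The sequences below are those of the miRNAs that stood furthest apart between the windows and of the relatives they are compared with. They are mature sequences from RefSeq (GRCm38.p6), written 5′ to 3′ with the seed in capitals. The first pair comes from 1 locus and shares a seed, and the 3 let-7 members share another.

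miR-132-3p: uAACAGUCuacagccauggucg
miR-212-3p: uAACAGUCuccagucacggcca
let-7b-5p: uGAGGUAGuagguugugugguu
let-7c-5p: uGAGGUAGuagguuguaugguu
let-7i-5p: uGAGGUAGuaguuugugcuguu

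The next 4 come from the locus of miR-200c and miR-141 and, for miR-200b-3p, from the other miR-200 locus. The seed of miR-200c-3p is that of miR-200b-3p, while miR-141-3p and miR-200a-3p share the seed AACACUG.

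miR-141-3p: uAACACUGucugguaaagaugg
miR-141-5p: cAUCUUCCagugcaguguugga
miR-200c-3p: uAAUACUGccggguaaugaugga
miR-200b-3p: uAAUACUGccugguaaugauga

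The Hox-cluster miRNAs are shown because 1 library carried most of their signal, and the members of each pair share a seed.

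miR-10a-5p: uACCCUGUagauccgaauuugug
miR-10b-5p: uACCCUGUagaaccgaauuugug
miR-196a-5p: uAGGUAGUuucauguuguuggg
miR-196b-5p: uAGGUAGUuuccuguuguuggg

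The last set holds X-linked miRNAs with lower values in the later window, followed by 3 entries whose highest value lay in 1 library.

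miR-362-3p: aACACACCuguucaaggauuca
miR-470-5p: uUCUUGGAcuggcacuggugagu
miR-871-3p: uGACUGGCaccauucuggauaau
miR-6240: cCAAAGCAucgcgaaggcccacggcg
miR-5126: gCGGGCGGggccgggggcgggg
miR-5100: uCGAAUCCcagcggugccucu

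No single miRNA passed the test between the windows. With edgeR's quasi-likelihood test, the line as a block and Benjamini-Hochberg adjustment at 0.05, 0 of the tested miRNAs passed (0%), and the smallest adjusted p was 0.230. At an unadjusted p under 0.05 there were 91 (12.3%), of which 38 had higher values in the later window (5.12%) and 53 lower (7.14%). DESeq2's Wald test with the same design passed 25 of them, 17 higher and 8 lower. In 34 miRNAs (4.58%) the windows did not overlap, 15 with all later values higher (2.02%) and 19 with all lower (2.56%). The direction was the same in all 4 cultures, that is in each line and experiment, for 174 miRNAs (23.5%). Of these, 86 (11.6%) were higher and 88 (11.9%) lower.

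The differences were small beside those of the first days. The median size of the log2 change was 0.23 between the windows, against 1.31 from day 0 to day 4, where 373 of 771 miRNAs passed edgeR's test (48.4%; 24.8% higher and 23.6% lower). From day 10 to days 19 to 23 it was 0.39, with 4 of 745 passing (0.537%), 1 higher (0.134%) and 3 lower (0.403%), in a comparison that shares the earlier window's libraries with the present one. That count was 2 without E14 diff3 at day 19 or PGK diff2 at day 23, 8 without E14 diff3 at day 10, and 19 without PGK diff3 at day 10 or day 21. For 440 miRNAs (59.3%) the 95% interval of the change lay within 2-fold either way, as it did for 368 of the 496 miRNAs with a mean of at least 10 CPM. CPM are counts per M counts of the library total, scaled by the TMM method. For the others the interval reached beyond 2-fold. The 10 most abundant miRNAs had log2 changes between -0.19 and 0.36. Among them, miR-92a-3p of the miR-17-92 cluster stood at 89659, 103476, 80117 and 96319.8 CPM in the earlier window. Here and below the order is E14 diff2, E14 diff3, PGK diff2 and PGK diff3. It stood at 116763, 116279, 103076 and 97932 CPM in the later window. It was higher in all 4 cultures, but the windows overlapped (log2 change 0.23 ± 0.11 SE, edgeR adjusted p = 0.428).

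Differences between the experiments were of a size like that between the windows. At the same line and window, 10 miRNAs differed between diff3 and diff2 by edgeR's test (1.35%), and 136 had an unadjusted p under 0.05 (18.3%). In this test the windows of a culture were taken as independent libraries, so these counts may be too high. The count of 10 fell to 1 without any one of the 4 E14 libraries or the PGK diff3 library at day 21, and to 3 without the PGK diff2 library at day 29. Within a line and window, the median difference between the 2 experiments was 0.24 to 0.31 on the log2 scale for miRNAs of at least 10 CPM. The median difference between the windows of 1 culture was 0.38 in E14 diff2 and 0.33 in PGK diff2, with 6 days between the windows in both. It was 0.21 in E14 diff3, over 11 days, and 0.17 in PGK diff3, over 8 days. The larger differences thus lay in diff2, where they exceeded those between experiments and where fewer days separated the windows.

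**Figure D1:**
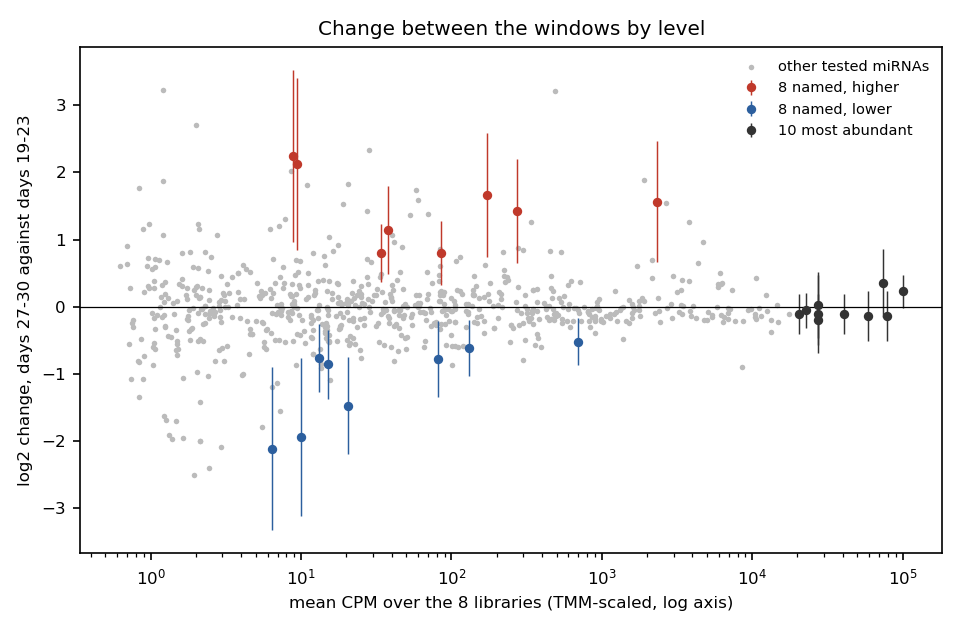
Log2 change from days 19 to 23 to days 27 to 30 (y axis) against the mean level in CPM over the 8 libraries (log x axis) for all tested miRNAs. Vertical bars are 95% intervals for the 16 named miRNAs and the 10 most abundant, whose points lie between -0.19 and 0.36.

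The miRNAs described next were the 8 in each direction with the smallest unadjusted p among those with at least 10 CPM in the higher window and 1 direction in all 4 cultures. None of these 16 passed edgeR's test. Their values chose them, and their level in each library follows.

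The clearest lower values were in the locus of miR-200c and miR-141, which lies within an intron of Gm15884 on chromosome 6. The mature miR-141-3p is at 124717917 to 124717938 on the minus strand of GRCm38, where it also overlaps an exon of Gm29008. It stood at 36.1, 30.0, 33.9 and 19.9 CPM in the earlier window and at 11.2, 7.56, 16.6 and 8.07 CPM in the later window. Every later library lay below every earlier one (log2 change -1.47 ± 0.32 SE, edgeR adjusted p = 0.230, DESeq2 adjusted p = 0.00434). From the same hairpin, miR-141-5p stood at 7.41, 3.36, 5.77 and 2.36 CPM and then at 1.15, 0.491, 1.99 and 0.861 CPM (-2.09 ± 0.53). Its neighbour miR-200c-3p stood at 14.1, 9.54, 5.77 and 6.79 CPM and then at 3.77, 3.44, 5.04 and 2.91 CPM (-1.20 ± 0.32). These 3 tested arms, of 4 in the tables, were lower in all 4 cultures with no overlap of the windows, a pattern seen in 2.56% of all tested miRNAs. The same 3 arms fell from day 10 to days 19 to 23 by edgeR's test. There miR-141-3p fell by 3.505 ± 0.26 on the log2 scale (SE, edgeR adjusted p = 7.59e-05).

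The other miR-200 locus, on chromosome 4, did not show this pattern. There miR-200b-3p (156055685 to 156055706, in introns of Ttll10 and Gm13648) stood at 4249, 3221, 3413 and 2382 CPM in the earlier window. In the later window it stood at 3737, 1709, 5189.9 and 2035 CPM, so that 1 culture was higher and 3 lower (log2 change -0.07 ± 0.36, 95% interval -0.89 to 0.76). The 6 arms of miR-200b, miR-200a and miR-429 had a median log2 change of -0.16, against -1.47 for the 3 of miR-200c and its neighbour and -0.04 over all tested miRNAs. Their summed share of counts was 0.374% to 0.591% in the earlier window and 0.261% to 0.686% in the later one.

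**Figure D2:**
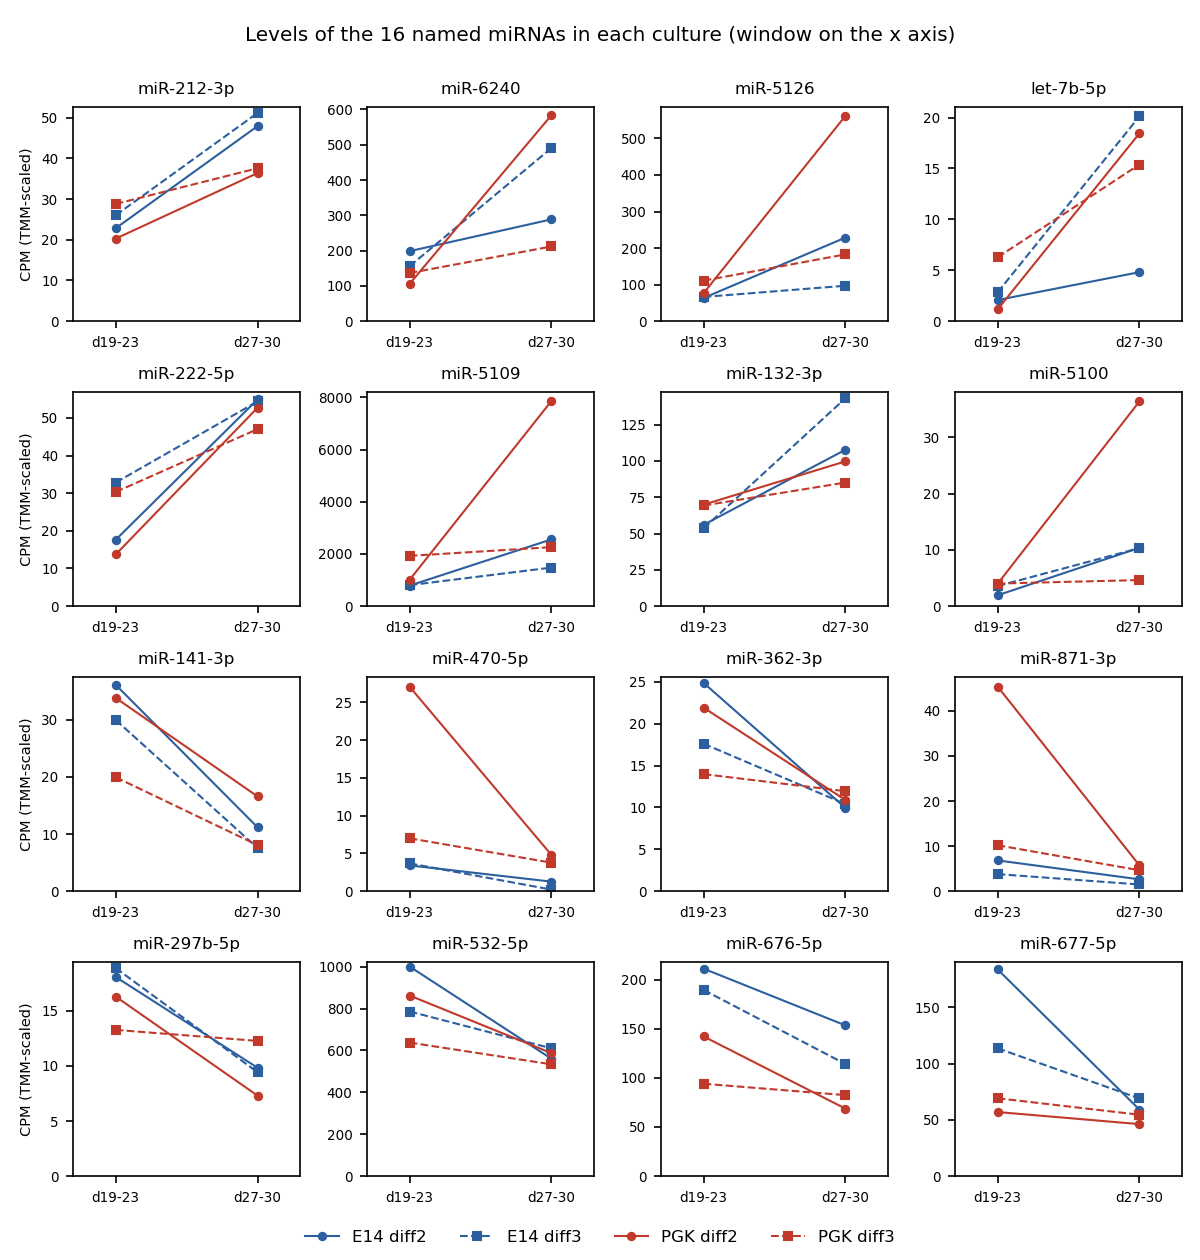
Level in CPM (y axis from 0) of the 16 named miRNAs at days 19 to 23 and days 27 to 30, with 1 line per culture (E14 blue, PGK red; diff2 solid, diff3 dashed). In miR-141-3p the 4 later values, 7.56 to 16.6 CPM, lie below the 4 earlier ones, 19.9 to 36.1 CPM.

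On the X chromosome, arms in introns of Clcn5 had lower values together. All 9 tested arms placed there by RefSeq were lower in all 4 cultures (11.9% of all tested miRNAs were), with a median log2 change of -0.70. At an unadjusted p under 0.05, 8 of them were lower, against 7.14% of all. The arms share a host gene and are not independent. This locus was picked out after its values were seen. The mature miR-362-3p (X, 7241984 to 7242005, minus strand) stood at 24.9, 17.6, 21.9 and 13.98 CPM and then at 9.94, 10.4, 10.9 and 11.9 CPM. Its windows did not overlap (log2 change -0.86 ± 0.23 SE, edgeR adjusted p = 0.230). The arm miR-532-5p, whose partner miR-532-3p lies in the same gene, stood at 1000.2, 786, 862 and 637 CPM and then at 560.1, 609.9, 587 and 534 CPM (-0.52 ± 0.15), again with no overlap. Over the whole X chromosome 37 of 74 tested miRNAs had lower values in the later window, against 278 of 518 placed elsewhere. At an unadjusted p under 0.05, however, 19 on X were lower and 3 higher, against 17 lower and 30 higher elsewhere. Values were lower in all 4 cultures for 26 of the 74 and for 46 of the 518. Without the germ line cluster described next, 9 of 62 on X were lower and 3 higher at that p. In all 4 cultures 14 were lower and 13 higher, and the median log2 change was 0.17. The Clcn5 arms made up 8 of those 9 and 9 of those 14.

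The germ line cluster on X, known for expression in testis, had its highest earlier values in 1 library. Of its 28 measured members 12 passed the filter on low counts. These 12 were lower in all 4 cultures (11.9% of all tested miRNAs were), with a median log2 change of -1.96. Since a member could pass the filter through the earlier window alone, that count is a description. Here miR-465b-3p and miR-465c-3p hold the same values, and members of a cluster are not independent. Mean later levels were low, from 0.483 CPM for miR-463-5p to 3.61 CPM for miR-871-3p. The mature miR-871-3p (X, 66810438 to 66810460, minus strand) stood at 6.81, 3.77, 45.4 and 10.2 CPM and then at 2.61, 1.47, 5.71 and 4.63 CPM (-1.94 ± 0.52 SE, edgeR adjusted p = 0.230). Likewise miR-470-5p (X, 66813995 to 66814017) stood at 3.41, 3.67, 27.1 and 6.99 CPM and then at 1.26, 0.196, 4.78 and 3.77 CPM (-2.11 ± 0.53). The PGK diff2 library at day 23 was far above the other 3 of its window for both. Without it the later values remained lower, at -1.14 for miR-871-3p and -1.51 for miR-470-5p. The later E14 diff3 value of miR-470-5p, 0.196 CPM, lay below the level of 3 counts in that library, 0.300 CPM. The level of miR-871-3p in PGK was 21952 ± 5208 CPM at day 0 and 96.4 ± 76.2 CPM at day 10 (SD, n = 2). The windows compared here therefore lie at the low end of a course that began at a high level in that line.

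The other 3 named miRNAs with lower values come from several places. The mature miR-677-5p lies in an intron of Atp5b on chromosome 10 (128085291 to 128085312). There it also overlaps an exon of Mir677, annotated as a small nucleolar RNA. Whether fragments of that RNA were counted under this name was not tested. Its levels were 184, 114, 56.9 and 69.2 CPM and then 59.1, 69.0, 46.2 and 54.6 CPM (log2 change -0.77 ± 0.25 SE). The windows overlapped, and the 2 E14 libraries of the earlier window were the highest. The levels of miR-676-5p were 211, 189, 142.1 and 93.98 CPM and then 153.3, 114, 68.6 and 82.4 CPM (-0.61 ± 0.18), and those of miR-297b-5p were 18.1, 18.9, 16.3 and 13.3 CPM and then 9.83, 9.42, 7.30 and 12.3 CPM (-0.77 ± 0.22). The windows overlapped for miR-676-5p and did not for miR-297b-5p. The latter belongs to the group of miR-297, miR-466, miR-467 and miR-669, many of them copies in an intron of Sfmbt2. The fitted change was below 0 for all 55 tested members of that group, of 77 in the tables, against 55.5% of all tested miRNAs, with a median of -0.51 on the log2 scale and 12 at an unadjusted p under 0.05 (7.14% of all were lower at that p). The cultures differed, however, and only 4 of the 55 were lower in all 4, against 11.9% of all tested miRNAs. The group's share of counts went from 0.289% to 0.339% in PGK diff3 and was smaller in the later window in the other 3 cultures. With RLE scaling 54 of the 55 were lower. The copies are close to each other in sequence and the authors' counting of shared reads is not known here, so the members are not independent.

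Among higher values, both miRNAs of the locus of miR-132 and miR-212 were alike. They lie in an intron of 1700016P03Rik on chromosome 11 (miR-212-3p at 75173443 to 75173464, miR-132-3p at 75173723 to 75173744, plus strand) and are known as activity-induced miRNAs of neurons. The levels of miR-212-3p were 22.8, 26.004, 20.3 and 28.8 CPM and then 47.9, 51.1, 36.4 and 37.6 CPM. Those of miR-132-3p were 56.0, 53.6, 69.9 and 69.3 CPM and then 108, 143.2, 99.7 and 85.1 CPM. For both miRNAs every later library lay above every earlier one, a pattern seen in 2.02% of all tested miRNAs. The log2 changes were 0.81 ± 0.19 and 0.80 ± 0.21 (SE, edgeR adjusted p = 0.230 for both). All 4 arms of the locus were higher in all 4 cultures (11.6% of all tested miRNAs were). The named arms were chosen partly for that direction, and arms that share a locus are not independent. From day 0 to day 4 both had risen, by 2.55 ± 0.52 and 2.12 ± 0.47 on the log2 scale (edgeR adjusted p = 0.00317 and 0.00500).

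A pair of arms from the locus of miR-221 and miR-222 on X was also higher without overlap, as 2.02% of all tested miRNAs were. The levels of miR-222-5p were 17.6, 32.8, 13.7 and 30.3 CPM and then 54.9, 54.4, 52.7 and 47.0 CPM (1.14 ± 0.29 SE, edgeR adjusted p = 0.230). The levels of miR-221-5p (X, 19146344 to 19146369, minus strand) were 17.03, 31.9, 19.5 and 35.7 CPM and then 60.2, 40.2, 69.8 and 48.0 CPM (1.06 ± 0.29). The later libraries were close to each other for miR-222-5p, and the earlier ones were lower in diff2 than in diff3. The more abundant arm miR-221-3p differed less, with 163, 257, 88.1 and 246 CPM and then 222.8, 290.02, 265 and 258 CPM (0.47 ± 0.31), and its windows overlapped. The windows of miR-222-3p overlapped too, and it was higher in 3 cultures (0.51 ± 0.40).

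The let-7 family had higher values in most of its members. Of 18 tested let-7 and miR-98 arms 16 were higher in the later window, 10 of them in all 4 cultures, and 7 were higher at an unadjusted p under 0.05. Over all tested miRNAs these shares were 44.5%, 11.6% and 5.12%. The median log2 change was 0.50, against -0.04 over all tested miRNAs. Here let-7a-1-3p and let-7c-2-3p hold the same values and are not independent. All 9 tested members with the let-7 seed were higher.

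The largest differences among those with at least 10 CPM were in let-7b-5p and let-7c-5p. The level of let-7b-5p (chromosome 15, 85707325 to 85707346, in an exon of Lncppara) was 2.07, 2.83, 1.15 and 6.27 CPM and then 4.81, 20.1, 18.5 and 15.4 CPM. It was higher in all 4 cultures, but the later E14 diff2 library lay below the highest earlier one (2.24 ± 0.56 SE, edgeR adjusted p = 0.230, DESeq2 adjusted p = 0.00455). The level of let-7c-5p, from copies in Lncppara and in an intron of Mir99ahg on chromosome 16, was 189.9, 202, 124.5 and 284 CPM and then 255, 740.1, 470.1 and 450.7 CPM (1.26 ± 0.35). Here too the later E14 diff2 library was the lowest of its window. By contrast let-7e-5p, hosted by Spaca6 on chromosome 17, stood at 454, 437, 662 and 589.6 CPM and then at 583, 655, 592 and 826 CPM (0.33 ± 0.15), higher in 3 cultures. Even so, the family took 0.196% to 0.342% of the counts in the later window, against 0.154% to 0.256% in the earlier one. It took 1.74% to 4.25% at day 0 and 0.0965% to 0.202% at day 4, so in these cultures its share fell as the cells left 2i medium.

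Some entries with high numbers in the miRNA catalogue were highest in 1 library. The levels of miR-5109 were 787, 804, 1011 and 1926 CPM and then 2559, 1477, 7865 and 2260.2 CPM (1.56 ± 0.40 SE, edgeR adjusted p = 0.230). The levels of miR-5126 (chromosome 1, 84695890 to 84695911, opposite an exon of Dner) were 63.4, 66.2, 76.7 and 111 CPM and then 229, 96.9, 562 and 182.7 CPM (1.66 ± 0.40). The levels of miR-5100 (chromosome 11, 60728698 to 60728718, in an intron of Mief2) were 1.93, 3.57, 3.98 and 4.01 CPM and then 10.4, 10.3, 36.4 and 4.63 CPM (2.13 ± 0.56). In all 3 the PGK diff2 library at day 29 was the highest. It was also the highest for miR-6240 (chromosome 5, 114851973 to 114851998, between genes), at 198, 156, 105.9 and 136 CPM and then 288, 491, 584 and 211.7 CPM (1.43 ± 0.34). Without that library the log2 changes were 1.09 for miR-5109, 1.21 for miR-5126, 1.28 for miR-5100 and 1.03 for miR-6240. The TMM factor of that library, 0.912, was the lowest of the 8. Whether fragments of other RNAs were counted under these names was not tested.

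**Figure D3:**
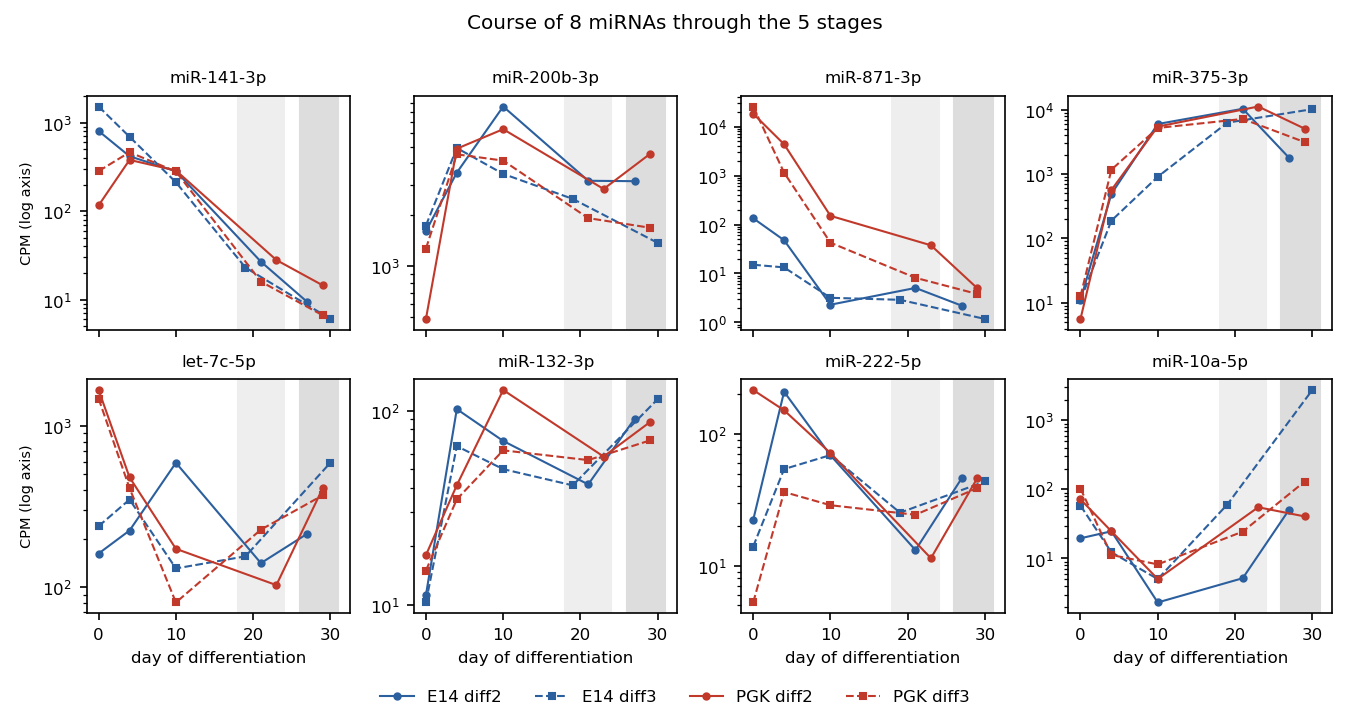
Level in CPM (log y axis) of 8 miRNAs against the day of differentiation for the 4 cultures (E14 blue, PGK red; diff2 solid, diff3 dashed), with the compared windows shaded. The level of miR-141-3p is lower in the later window in all 4 cultures, while miR-10a-5p reaches its highest value in the E14 diff3 library at day 30.

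The clusters typical of pluripotent cells had small differences. All 14 tested arms of the miR-290 cluster were higher in the later window (44.5% of all tested miRNAs were), with log2 changes of 0.22 to 0.50. However, 0 of them had an unadjusted p under 0.05. The cluster took 5.72% of the counts in PGK diff2 at day 23 and 11.1% to 12.3% in the other earlier libraries. It took 11.6% to 14.7% in the later window. Its most abundant member, miR-295-3p (chromosome 7, 3220815 to 3220837), stood at 73089, 76393, 35369 and 75613 CPM and then at 91068, 75949, 82318 and 80668 CPM. The PGK diff2 library at day 23 was the lowest, and the change was 0.36 ± 0.22 with it (SE, edgeR adjusted p = 0.551) and 0.19 without it. The miR-302 cluster had a median log2 change of -0.17 over 10 arms. Its miR-302a-3p stood at 14666, 9419, 5138 and 4381 CPM and then at 10410.1, 7616, 5947 and 3578 CPM (-0.21 ± 0.22). In both windows it was higher in E14 than in PGK, and the windows overlapped within each line. The cluster took 1.42% to 3.53% of the counts in the later window, so the primed-state marker was present in every library.

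The Hox-cluster miRNAs were high in 1 library, E14 diff3 at day 30. The levels of miR-10a-5p (chromosome 11, 96317186 to 96317208, between genes) were 6.96, 78.6, 66.6 and 30.5 CPM and then 60.5, 3441, 46.5 and 157 CPM. The levels of miR-10b-5p (chromosome 2, 74726074 to 74726096, in introns of Hoxd3 and Hoxd4) were 168, 1441, 349 and 898 CPM and then 588, 17047, 468 and 509 CPM. The library at day 30 thus stood far above all others for both. The later levels of miR-196a-5p were 11.7, 366, 7.57 and 21.95 CPM and those of miR-196b-5p 16.5, 306, 11.7 and 16.8 CPM, with no earlier library above 35.5 CPM.

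The window change rested on this library. It was 3.21 ± 1.60 for miR-10a-5p (SE, edgeR adjusted p = 0.467) and 0.85 without the library. For miR-10b-5p, miR-196a-5p and miR-196b-5p it was 1.55, 1.59 and 1.37 with the library and -0.39, -0.40 and -0.36 without it. The 11 Hox-cluster arms in the tables, of which 6 were tested, took 2.18% of the counts there and at most 0.162% in the other 7 libraries. In the same library the neural list was at its highest share, 0.413% against 0.201% to 0.244% in the other 7, and miR-210 was at 0.339% against at most 0.225%. Their part in the Hox result was not tested.

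Markers of other cell types came next. In these bulk libraries fewer cells of a type and less RNA per cell cannot be told apart. In the neural list, with 19 tested of 23 in the tables, 14 arms were higher (44.5% of all tested miRNAs were). At an unadjusted p under 0.05, 7 were higher (5.12% of all were), and 4 of those 7 were arms of miR-132 and miR-212. The most abundant arm, miR-218-5p, had a log2 change of -0.02 ± 0.29 (SE). The list's share of counts went from 0.244% to 0.413% in E14 diff3 and from 0.229% to 0.242% in E14 diff2. It was slightly smaller in the later window in both PGK cultures. The neural miR-9-5p stood at 548, 567, 192.5 and 231 CPM and then at 608, 1437, 406 and 317 CPM (0.82 ± 0.25 SE, edgeR adjusted p = 0.257), higher in all 4 cultures. The fitted change was above 0 for all 12 tested mesenchyme arms, with a median of 0.61 on the log2 scale. Only 2 of the 12 were higher in all 4 cultures and 1 had an unadjusted p under 0.05, against 11.6% and 5.12% of all tested miRNAs. There miR-199a-3p stood at 189, 290.1, 235 and 627 CPM and then at 155.1, 869, 688 and 578 CPM (0.83 ± 0.51), higher in 2 cultures. Mesenchyme miRNAs took 0.705% to 2.13% of the counts in the earlier window and 1.22% to 2.09% in the later one. The share went from 0.705% to 1.68% in PGK diff2 and was slightly smaller in the later window in both diff3 cultures. Of the other lists, muscle and heart (4 tested of 14), blood and endothelium (8 of 12) and endoderm (5 of 15) had medians of -0.20, -0.14 and -0.21. Their shares in the earlier and later window were 0.00525% to 0.0131% and 0.00557% to 0.0106% for muscle and heart, and 0.0581% to 0.0889% and 0.0510% to 0.0810% for blood and endothelium. For endoderm they were 0.918% to 1.46% and 0.291% to 1.36%. Defining markers were at or near 0 for liver (miR-122-5p, at 0 counts in 5 of the 8 libraries and at most 1), muscle (miR-206-3p, at 0 in 6 and at most 2; miR-1a-3p at most 11), red cells (miR-451a, at most 9) and myeloid cells (miR-223-3p, at most 3). The neuronal miR-124-3p had 54 to 319 counts. The part of these cell types in the other differences was not tested.

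Among the endoderm list, miR-375-3p, a miRNA of endocrine pancreas and gut, was abundant and uneven. Its levels were 13835, 8153, 13460.0 and 8930.1 CPM and then 2121, 12680.0, 5793 and 3801 CPM (log2 change -0.90 ± 0.49 SE, edgeR adjusted p = 0.491). It was lower in 3 cultures and higher in E14 diff3. At day 0 it had stood at 11.1 ± 0.0650 CPM in E14 and 9.16 ± 4.99 CPM in PGK (SD, n = 2), and it rose by 5.80 ± 0.63 on the log2 scale to day 4 (edgeR adjusted p = 7.53e-05).

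**Figure D4:**
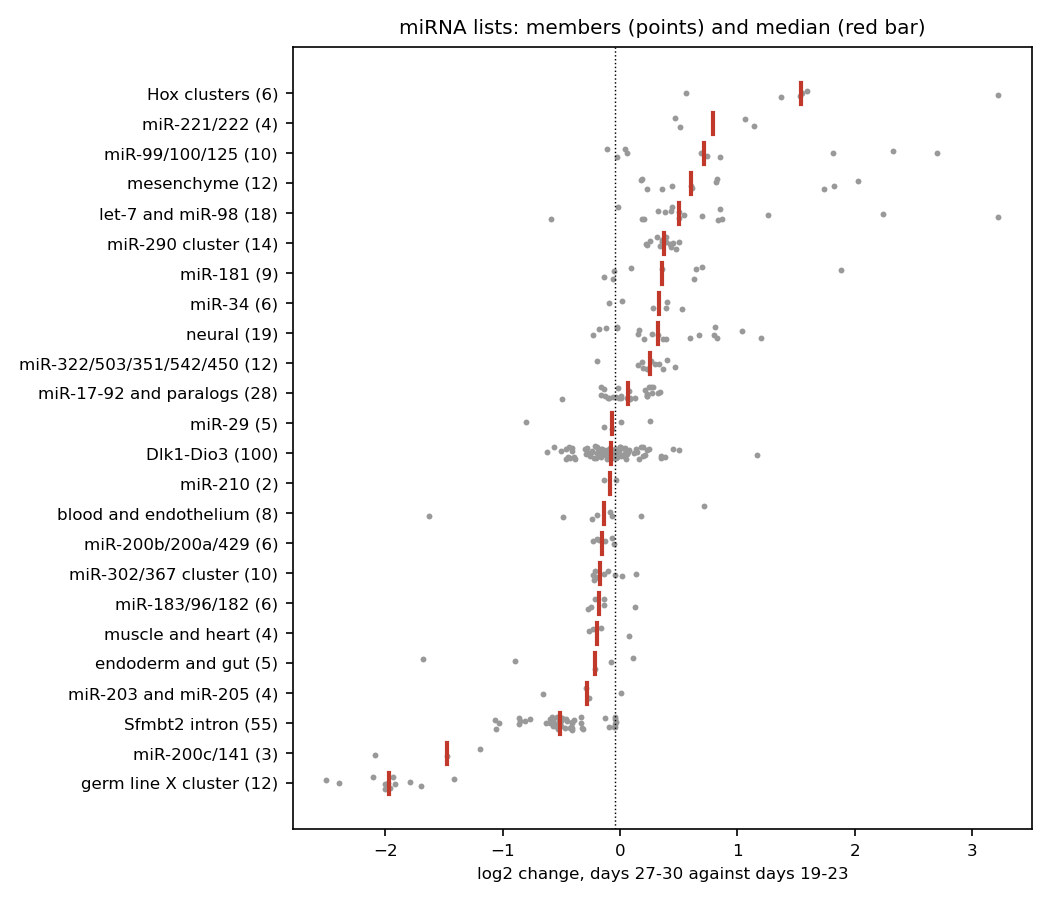
Log2 change between the windows (x axis) for the tested members of 24 miRNA lists (points; number tested in brackets), with the median of each list as a red bar and the median of all tested miRNAs, -0.04, as a dotted line. The germ line X cluster has the lowest median, -1.96, over the 12 of its 28 members that passed the filter on low counts. Its share of counts in the earlier window was highest in PGK diff2 at day 23. The Hox clusters have the highest median, 1.54, carried by 1 library.

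The lines were then compared. In E14 alone 0 miRNAs passed edgeR's test (0%), with 62 at an unadjusted p under 0.05 (8.36%), and DESeq2 passed 6. In PGK alone 0 passed (0%), with 42 at an unadjusted p under 0.05 (5.66%), and DESeq2 passed 1. With each culture as a block, E14 had 3 miRNAs past the threshold, all higher. These were miR-615-3p (block log2 change 3.22, adjusted p = 0.0169), miR-196b-5p (3.04, 0.0361) and miR-672-5p (1.92, 0.0361), named here because they are the whole count. The first and second lie in the Hox clusters. Without the block both had an adjusted p of 0.576 in edgeR, and with DESeq2 0.338 and 0.417. The E14 levels of miR-615-3p were 1.18 and 10.6 CPM and then 8.37 and 116 CPM, highest in the same diff3 library at day 30 as the other Hox-cluster miRNAs. For miR-672-5p the adjusted p was 0.576 in edgeR without the block and 0.0462 with DESeq2. The levels of miR-672-5p were 14.1, 32.7, 56.7 and 63.5 CPM and then 44.7, 145.3, 104 and 98.03 CPM, higher in all 4 cultures.

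The change between the windows was not shown to differ between the lines. The test of the difference passed 0 miRNAs with edgeR (0%) and 0 with DESeq2, with 14 at an unadjusted p under 0.05 (1.89%). For miR-132-3p the log2 change was 1.20 in E14 and 0.41 in PGK (difference -0.79 ± 0.33 SE, edgeR adjusted p = 0.998). For miR-141-3p it was -1.82 and -1.13 (difference 0.69 ± 0.62). The sign was shared by both lines in 468 miRNAs, 204 higher and 264 lower. Across miRNAs, which are not independent, the changes of the lines correlated with Pearson r = 0.476 and Spearman rho = 0.413, given as a description.

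**Figure D5:**
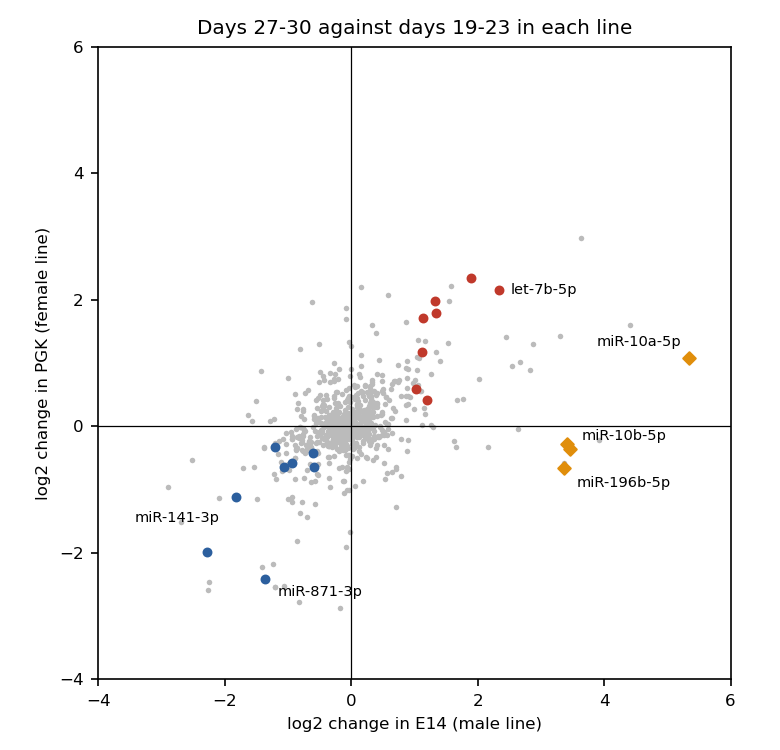
Log2 change from days 19 to 23 to days 27 to 30 in E14 (x axis) and in PGK (y axis) for all tested miRNAs; red and blue points are the 8 higher and 8 lower named miRNAs, and orange diamonds the Hox-cluster miR-10a-5p, miR-10b-5p, miR-196a-5p and miR-196b-5p. The diamonds lie far right, at 3.36 to 5.35 in E14 and -0.66 to 1.07 in PGK.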

How the data were processed

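The deposited raw tables hold the authors' counts per miRNA and library, from Illumina small RNA libraries of Trizol-extracted, DNase-treated RNA per the labels' protocols. Tools named in the submitters' processing notes are DESeq2 and CASAVA 1.8.2. Aligner, annotation and the counting of multi-copy reads are not given in the sources consulted, so miRNAs with several loci are uncertain. Of 1063 miRNAs in both tables, all but 321 passed filterByExpr (by line and window), and those tested held 99.993% of the counts. The members and lists were chosen with earlier results of these data known.

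Days 27 to 30 were compared with days 19 to 23 by edgeR 4.0.16 (R 4.3.3) quasi-likelihood F tests with TMM scaling and line as covariate, on 8 libraries with 5 residual degrees of freedom, and Benjamini-Hochberg adjustment at 0.05. A fit with 1 coefficient per line and window gave the changes by line and their difference. The SE is the log2 change over the root of F. The same test on days 0 and 4, days 10 and 19 to 23, and experiment served as yardsticks. The script was tested on simulated data. Totals were 7.11 to 9.99 M (mega), so 3 counts, the limit a count of 0 allows, were 0.300 to 0.422 CPM. Reads carry no molecular identifiers, so this limit covers counting error alone.

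Named miRNAs were those past 0.05 with at least 10 CPM in the higher window, filled to 8 per direction by unadjusted p among those alike in all 4 cultures, the 10 most abundant, and up to 4 per list. The alternatives were scaling by RLE or by totals, other filters, DESeq2 1.42.0, all 20 libraries, each culture as block, leaving out each library, and day as a number (added after seeing the data). Both windows of a culture carry 1 experiment name in the labels, so the culture was taken to pair them in the fits with a culture block. Their deviations from the group means correlated at 0.567 in E14 and 0.134 in PGK. Libraries of the same experiment number in the other line correlated at 0.104 to 0.473, so these values do not single out the culture. The main test held only the line as covariate. RefSeq (GRCm38.p6) gave sequences and positions for 592 of the tested miRNAs, with host genes from GENCODE M21.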

Additional observations from a re-analysis of the deposited data

Results flagged for a closer look

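Within each window of 4 libraries, 164 sets of values were checked for 1 library set far apart from the other 3, by its gap to the nearest divided by the whole range, against Dixon's 95% limit for 4 values. There were 10 such sets (6.1%), and chance gives about 1 in 20. In the PGK diff2 library at day 23, miR-470-5p was at 27.1 CPM against at most 6.99 in the other 3 (ratio 0.848), and miR-871-3p at 45.4 CPM against at most 10.2 (0.846). In the same library miR-295-3p was at 35369 CPM against at least 73089 (0.919). In the PGK diff2 library at day 29, miR-5109 was at 7865 CPM against at most 2559 (0.831). The other 6 sets were all in the E14 diff3 library at day 30. There miR-10a-5p was at 3441 CPM against at most 157 (0.967), miR-10b-5p at 17047 CPM against at most 588 (0.993), miR-196a-5p at 366 CPM against at most 21.95 (0.96) and miR-196b-5p at 306 CPM against at most 16.8 (0.983). The Hox-cluster share of counts there was 2.18% against at most 0.0719% (0.989), and the miR-210 share 0.339% against at most 0.107% (0.839).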

How the results depend on the processing

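With the culture as a replicate block the comparison of the windows passed 0 miRNAs in edgeR, as it did under both other scalings, both other filters, all 20 libraries, day as a number and each library left out. DESeq2 passed 25. In E14 the replicate block passed 3 and DESeq2 6, in PGK DESeq2 passed 1, and the block passed 0 in PGK and in the difference between lines. Between experiments 10 became 6 without a filter, 6 at 10 CPM, 45 with DESeq2, 22 with all 20 libraries and 1 to 15 with a library left out. From day 10 to days 19 to 23, 4 became 2 with total counts, 16 without a filter, 60 with DESeq2, 15 with the block and 2 to 19 with a library left out. For the 55 miRNAs followed, 17 of 818 values reversed in sign. With all 20 libraries miR-434-3p was at 0.00714. Over all alternatives but day as a number, the ranges were -0.23 to 0.0185 for miR-127-3p, -0.11 to 0.22 for miR-22-3p, -0.0948 to 0.0199 for miR-434-3p, -0.15 to 0.0120 for miR-411-5p, -0.35 to 0.0328 for miR-302d-3p, -0.45 to 0.20 for miR-200b-3p, -0.28 to 0.20 for miR-99b-5p, -0.39 to 2.30 for miR-10b-5p, -0.40 to 2.39 for miR-196a-5p and -0.36 to 2.19 for miR-196b-5p. The cause was not tested. Fits with a library left out hold fewer samples. Total-count scaling moved the median change of all miRNAs in PGK from -0.0047 to -0.11. With 4 libraries a side and a median SE of 0.25 on the log2 scale, edgeR passed none of the 62 miRNAs whose fitted change was over 2-fold, so changes of that size were often not detectable.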
